A study of Mus musculus with 12 samples.

Results

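Transcripts of 5 genes of the red cell lineage were followed through 12 liver RNA samples: Alas2, Slc4a1, Hba-a1, Hbb-b1 and Klf1. The genes were chosen by name, and every probe whose gene name on the array, or whose current symbol through its RefSeq accession, was one of these 5 counted as a member. Of the 28784 gene or transcript names on the array these are 5, and they gave 9 of its 41174 probes: 1 each for Alas2, Slc4a1 and Klf1, 2 for Hba-a1 and 4 for Hbb-b1. The samples were livers of male C57BL/6 mice, 3 months old, all with a liver knockout of the glucocorticoid receptor (GR, gene Nr3c1). One group of 4 received phosphate-buffered saline (PBS). A group of 4 received an adeno-associated virus carrying green fluorescent protein (AAV-GFP). The last 4 received an adeno-associated virus carrying human GR beta (AAV-hGRB), a splice form of the receptor. All groups carried this liver knockout, so AAV-hGRB against AAV-GFP measures the human cargo against another cargo. AAV-GFP against PBS measures the vector with that other cargo. Whether blood cells or other cells in the organ kept the receptor was not tested. The sources used here do not name the Cre line behind the knockout, the promoter or dose of the vectors, or the time after injection. Samples carry numbers within a group, but nothing in the labels ties each to an animal of its own; p-values here reflect the spread among these samples, which may be technical.

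Red cells form when precursors switch on Klf1 and Gata1, which drive the globin genes, the haem pathway and the proteins of the red cell membrane. Haem made by Alas2 and the later enzymes joins alpha and beta globin to form haemoglobin, and the anion exchanger Slc4a1 (band 3) anchors the membrane skeleton and carries bicarbonate. The liver is the main site of red cell formation in the fetus. In the adult that role belongs to the bone marrow, and in rodents also to the spleen, so erythroid transcripts in adult liver RNA can come from blood in the organ, whose young red cells still carry RNA, as well as from cells of the liver. In such bulk RNA, fewer cells of a type and less RNA per cell cannot be told apart.

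The globin probes are shown first, because their sequences set what the values can distinguish. All are 60 bases long and are written 5′ to 3′ as RNA-sense DNA. The Hba-a1 pair overlaps by 30 bases, of which 27 are identical and 3 differ. Counted from base 1 at the 5′ end of the first probe, with its base given first, these are T37C, C49T and C52T, and the capitals mark them.
Hba-a1 probe 1 (A_52_P278538), chr11:32235785-32235966 of mm7: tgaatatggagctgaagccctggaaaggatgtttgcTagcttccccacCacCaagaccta
Hba-a1 probe 2 (A_52_P208681), chr11:32235937-32235996 of mm7: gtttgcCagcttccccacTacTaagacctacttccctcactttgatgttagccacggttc
Of the 4 Hbb-b1 probes, 3 are printed: a pair that shares a run of 29 bases, in capitals, and the probe nearest the start of the coding sequence.
Hbb-b1 probe 1 (A_51_P374476), chr7:99864305-99864363 of mm7: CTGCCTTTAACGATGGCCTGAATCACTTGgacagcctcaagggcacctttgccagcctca
Hbb-b1 probe 3 (A_52_P260346), chr7:99864335-99864394 of mm7: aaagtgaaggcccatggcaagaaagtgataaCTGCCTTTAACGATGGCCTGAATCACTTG
Hbb-b1 probe 4 (A_51_P374468), chr7:99864621-99864680 of mm7: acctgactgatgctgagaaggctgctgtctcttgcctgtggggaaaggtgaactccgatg
The remaining Hbb-b1 probe (probe 2, A_52_P213909) lies at chr7:99863416-99863476 of mm7. All 4 Hbb-b1 probes carry an accession that RefSeq on GRCm38.p6 now calls Hbb-bt, and 2 of them (probes 2 and 4) also list the accession of Hbb-b2. The alpha genes Hba-a1 and Hba-a2, and the adult beta genes, are near-identical copies, so which copy gave a signal is uncertain. The 3 single probes lie at chrX:145329125-145329184 (Alas2), chr11:102457981-102458040 (Slc4a1) and chr8:83491092-83491151 (Klf1), all on mm7.

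Upstream sequence was available in RefSeq on GRCm38.p6 for 4 of the genes, with Hbb-bt standing for Hbb-b1. The 250 bases before each transcript start are printed in the direction of transcription, because these are the genes that the erythroid factors Gata1 and Klf1 are known to drive. Capitals mark matches on either strand to a GATA motif (AGATAA or AGATAG or TGATAA or TGATAG) or to a CACCC-type motif (CCNCNCCC).
Alas2, chrX:150547167-150547416, plus strand: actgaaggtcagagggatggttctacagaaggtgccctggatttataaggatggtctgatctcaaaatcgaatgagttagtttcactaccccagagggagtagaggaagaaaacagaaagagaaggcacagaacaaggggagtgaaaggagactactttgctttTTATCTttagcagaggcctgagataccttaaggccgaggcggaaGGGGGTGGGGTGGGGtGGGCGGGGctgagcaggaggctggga
Hba-a1, chr11:32283422-32283671, plus strand: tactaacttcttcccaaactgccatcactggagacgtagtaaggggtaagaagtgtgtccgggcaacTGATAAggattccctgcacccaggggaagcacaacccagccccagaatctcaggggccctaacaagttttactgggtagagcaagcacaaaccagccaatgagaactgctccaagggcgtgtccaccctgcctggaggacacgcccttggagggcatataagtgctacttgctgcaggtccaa
Hbb-bt, chr7:103813924-103814173, minus strand: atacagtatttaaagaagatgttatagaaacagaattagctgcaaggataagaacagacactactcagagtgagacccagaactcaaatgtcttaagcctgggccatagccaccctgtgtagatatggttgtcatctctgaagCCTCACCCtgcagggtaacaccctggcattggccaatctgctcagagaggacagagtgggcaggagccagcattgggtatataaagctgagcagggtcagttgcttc
Klf1, chr8:84901732-84901981, plus strand: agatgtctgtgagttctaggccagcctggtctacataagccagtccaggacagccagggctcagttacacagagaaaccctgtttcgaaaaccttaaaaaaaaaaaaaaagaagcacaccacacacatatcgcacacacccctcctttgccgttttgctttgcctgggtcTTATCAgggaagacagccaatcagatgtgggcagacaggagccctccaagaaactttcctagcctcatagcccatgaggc
Alas2 held 1 GATA match and 4 CACCC-type matches, which overlap one another in part and lie on the minus strand. Hba-a1 and Klf1 each held 1 GATA match and 0 CACCC-type matches, and Hbb-bt held 1 CACCC-type match and 0 GATA matches. Of the 32536 promoters in the table, 26.5% held a GATA match in the same window, 46.2% a CACCC-type match and 8.24% both. A match describes these letters and is neither a site nor a cause.

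Levels are log2 intensity with the 75th percentile of the array's probes subtracted, so that 0 is that percentile and a difference of 1 is a 2-fold change; a level is compared only within a probe. All 9 erythroid probes were well above background on 12 of 12 arrays and 0 were saturated. Across arrays, 54.9% to 66.3% of probes were well above background, and the number of arrays, 4 per group, limits the precision. The brightest Nr3c1 probe stood between 0.05 and 0.58 on the 12 arrays. It checks no label, since all groups carry the knockout and the sources used here do not give the deleted part.

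Within the PBS group the globins had the widest spread of the 5 genes; within AAV-GFP and AAV-hGRB that was Slc4a1, with an SD of 0.49 and 0.55. Hba-a1, read by its brightest probe, stood at 6.43, 5.01, 6.81 and 7.35 on PBS arrays 1 to 4. On the AAV-GFP arrays Hba-a1 gave 6.16, 5.97, 6.31 and 6.35, and on the AAV-hGRB arrays it gave 6.03, 5.51, 5.77 and 5.51. PBS replicate 2 was thus the lowest of all 12 arrays and PBS replicate 4 the highest, a range of 5.07-fold inside PBS against 1.29-fold in AAV-GFP and 1.44-fold in AAV-hGRB. The group means were 6.40 ± 1.00 in PBS, 6.20 ± 0.17 in AAV-GFP and 5.70 ± 0.25 in AAV-hGRB (SD, n = 4).

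Beta globin gave the same picture. Hbb-b1 probe 1 stood at 7.05, 5.70, 7.12 and 8.11 in PBS, at 6.86, 6.79, 6.85 and 6.97 in AAV-GFP and at 6.54, 5.93, 6.51 and 6.27 in AAV-hGRB. The 4 AAV-hGRB arrays all lay below the 4 AAV-GFP arrays, while the PBS arrays lay on both sides of each. Group means were 6.99 ± 0.99 in PBS, 6.87 ± 0.08 in AAV-GFP and 6.32 ± 0.28 in AAV-hGRB (SD, n = 4). The PBS range was 5.32-fold for probe 1 and reached 7.75-fold for probe 4, and within AAV-GFP the 4 Hbb-b1 probes ranged over 1.13-fold to 1.18-fold. Probe 4, near the 5′ end of the message, minus probe 2, near its 3′ end, gave -2.53 to -2.32 in AAV-GFP, -2.63 to -2.09 in AAV-hGRB and -2.54 to -1.89 in PBS, so the 3 ranges overlapped.

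**Figure D1:**
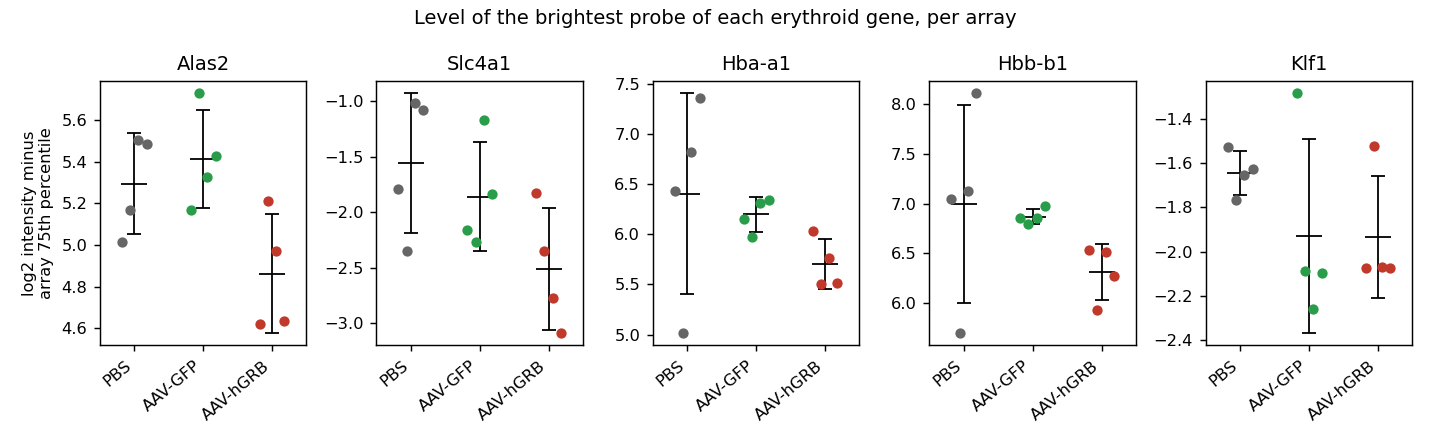
Level of each erythroid gene's brightest probe on every array (y axis, log2 intensity minus the 75th percentile of that array; each panel has its own scale). Points are arrays, the horizontal mark is the group mean and the bar is 1 SD (n = 4); the PBS points of Hba-a1 run from 5.01 to 7.35 and those of Hbb-b1 from 5.70 to 8.11, while AAV-GFP and AAV-hGRB are narrow and lie apart for Hbb-b1.

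Alas2 encodes the erythroid 5-aminolevulinate synthase, the first enzyme of haem synthesis in red cell precursors. Its levels were 5.01, 5.17, 5.50 and 5.49 in PBS, 5.17, 5.73, 5.32 and 5.43 in AAV-GFP and 4.62, 5.21, 4.97 and 4.64 in AAV-hGRB. The groups overlapped: AAV-hGRB replicate 2, at 5.21, lay above AAV-GFP replicate 1, at 5.17, and the other 3 AAV-hGRB arrays were the lowest of the 12. Group means were 5.29 ± 0.24, 5.41 ± 0.24 and 4.86 ± 0.28 in PBS, AAV-GFP and AAV-hGRB (SD, n = 4). In Alas2 the range within PBS was 1.40-fold, and PBS replicates 2 and 4, which were 5.07-fold apart in Hba-a1, stood at 5.17 and 5.49.

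Slc4a1, the anion exchanger of the red cell membrane, was dim. It stood at -1.79, -2.35, -1.02 and -1.08 in PBS, at -2.16, -2.27, -1.17 and -1.84 in AAV-GFP and at -1.83, -2.35, -2.77 and -3.09 in AAV-hGRB. The AAV-hGRB group held the 2 lowest arrays, replicates 3 and 4, but its replicate 1 lay above 3 of the AAV-GFP arrays, so the groups overlapped. Means were -1.56 ± 0.63 in PBS, -1.86 ± 0.49 in AAV-GFP and -2.51 ± 0.55 in AAV-hGRB (SD, n = 4).

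Klf1, the transcription factor that activates adult beta globin, showed no such order. Its levels were -1.53, -1.77, -1.66 and -1.63 in PBS, -1.29, -2.09, -2.26 and -2.10 in AAV-GFP and -2.07, -1.52, -2.07 and -2.08 in AAV-hGRB. Each vector group held 3 arrays below -2 and 1 array above all PBS arrays. Means were -1.65 ± 0.10, -1.93 ± 0.44 and -1.94 ± 0.28 in PBS, AAV-GFP and AAV-hGRB (SD, n = 4).

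In AAV-hGRB against AAV-GFP, all 9 erythroid probes had a negative log2 change and none passed the test. Limma called 0% of the 26593 probes tested at an adjusted p of 0.05 (892 had an unadjusted p under 0.05), and of the erythroid probes only Alas2 was among these. Alas2 was 1.47-fold lower (log2 change -0.55, SE 0.21, 95% interval -1.01 to -0.09), with an unadjusted p of 0.022 and a limma adjusted p of 0.998. The interval of Hba-a1 probe 1 ran from -1.35 to 0.37 around a change of -0.49, and that of probe 2 from -1.47 to 0.25 around -0.61. The Hbb-b1 probes gave -0.55, -0.61, -0.53 and -0.51, with standard errors of 0.39 to 0.47. Slc4a1 gave -0.65 (SE 0.37, interval -1.46 to 0.15), and Klf1 gave -0.004 (SE 0.23, interval -0.51 to 0.50). The median over the 9 probes was -0.55, against -0.05 over all probes tested, of which 56.5% were negative.

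For Hbb-b1 probes 1, 2 and 3 the AAV-hGRB arrays lay wholly below the AAV-GFP arrays, which holds for 3 of the 9 erythroid probes and for 1.94% of all probes tested. These 3 probes read the same messages and overlap in part, so they are not separate observations. Within the slides that hold both groups (slides 5 and 6, with 1 array of each), the AAV-hGRB minus AAV-GFP difference was -0.26 and -0.34 for Hbb-b1 probe 1, 0.06 and -0.55 for Hba-a1 probe 1, and -1.11 and -0.35 for Alas2. Slc4a1 changed sign between these slides, at 0.44 and -1.60, and Klf1 gave 0.02 and 0.19. With slide as a block in the fit, Alas2 gave -0.72, Slc4a1 -0.72, Hba-a1 -0.59 and Hbb-b1 -0.62. Under quantile scaling Alas2 gave -0.36, Hba-a1 -0.29 and Hbb-b1 -0.30, and Slc4a1 gave -0.15 under normexp background correction and -0.42 without AAV-GFP replicate 3. Hbb-b1 probe 4 gave -0.34 without AAV-hGRB replicate 2.

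In AAV-GFP against PBS 8 of the 9 erythroid probes had a negative estimate, and that of Alas2 was positive. Limma called 0% of probes (448 had an unadjusted p under 0.05, 0 of them erythroid), and 0 of the 9 erythroid probes separated the groups downwards, against 0.357% of all probes. Alas2 gave 0.12 (interval -0.34 to 0.58) and Klf1 -0.29 (interval -0.79 to 0.22). Slc4a1 gave -0.30, the Hba-a1 probes -0.21 and -0.15, and the Hbb-b1 probes -0.12, -0.23, -0.23 and -0.43. Leaving out 1 array moved Slc4a1 to between -0.56 (without PBS replicate 2) and -0.12 (without PBS replicate 3), with -0.53, -0.20, -0.16 and -0.14 without AAV-GFP replicates 3, 1 and 2 and PBS replicate 4. Klf1 gave -0.50 without AAV-GFP replicate 1 and -0.18 without replicate 3, and Alas2 ranged from 0.013 without AAV-GFP replicate 2 to 0.20 without AAV-GFP replicate 1. With array weights Slc4a1 gave -0.02, and normexp gave -0.15 for Klf1. The direction of all 6 globin probes turned when PBS replicate 4 was left out: Hba-a1 probe 1 then gave 0.11 and Hbb-b1 probe 1 gave 0.25, and without PBS replicate 2 they gave -0.67 and -0.56. Slides that hold both groups gave 1.14, -1.38 and -0.50 for Hba-a1 probe 1 and 1.16, -1.31 and -0.27 for Hbb-b1 probe 1 on slides 1, 5 and 6, whose PBS arrays are replicates 2, 4 and 3. Alas2 gave -0.001, 0.24 and -0.18 on these slides. With array weights the same globin probes gave 0.51 and 0.57. The median over the 9 probes was -0.23, against 0.00 over all probes, of which 49.4% were negative.

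In AAV-hGRB against PBS, which shares its arrays with both other comparisons, all 9 estimates were again negative and none passed. Limma called 0% of probes (1553 had an unadjusted p under 0.05). The AAV-hGRB arrays lay wholly below the PBS arrays for 0 of the 9 erythroid probes, against 2.45% of all probes. Slc4a1 was 1.94-fold lower, with a log2 change of -0.95 (SE 0.37, interval -1.76 to -0.15), an unadjusted p of 0.024 and a limma adjusted p of 0.827. For Alas2 the change was -0.43 (interval -0.89 to 0.03) and for Klf1 -0.29 (interval -0.80 to 0.22). Hba-a1 gave -0.70 and -0.76 by its 2 probes, and Hbb-b1 gave -0.68, -0.84, -0.75 and -0.95. These globin values rested on 2 PBS arrays: without PBS replicate 4, Hba-a1 probe 1 gave -0.38 and Hbb-b1 probe 1 -0.31, and without PBS replicate 2 they gave -1.16 and -1.11. With array weights, which give less weight to arrays that vary more, they gave -0.06 and -0.11 and Slc4a1 gave -0.58. Normexp background correction gave -0.37 for Slc4a1 and -0.05 for Klf1, and slide as a block gave -0.70 for Alas2. Within slides 5 and 6 the differences were -0.86 and -0.53 for Alas2, -0.75 and -1.76 for Slc4a1, -1.32 and -1.05 for Hba-a1 probe 1, -1.57 and -0.61 for Hbb-b1 probe 1, and -0.44 and -0.42 for Klf1. The median of the 9 probes was -0.75, against -0.06 over all probes.

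**Figure D2:**
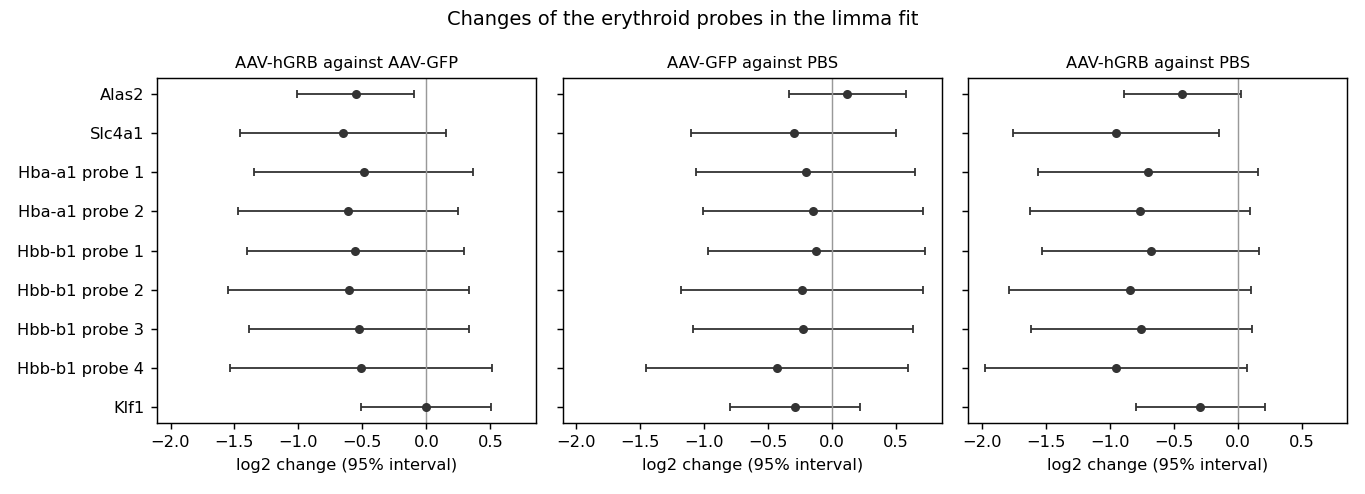
Log2 change of each erythroid probe (x axis) in the 3 comparisons; points are limma estimates and bars their 95% intervals (4 arrays per group, 12 in the fit). In AAV-hGRB against AAV-GFP the Alas2 interval, -1.01 to -0.09, lies below 0, as does that of Slc4a1 against PBS, -1.76 to -0.15; the globin intervals all cross 0.

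The globins moved together from array to array, and Slc4a1 went with them more closely than Alas2 or Klf1 did by r, a difference that was not tested. Over the 12 arrays Hba-a1 and Hbb-b1 had a Pearson r of 0.97 and a Spearman rho of 0.99, both with a permutation p of 1e-05, the smallest the resamples can give, and an adjusted p of 0.0001 over the 10 pairs of genes. Without the 2 arrays farthest from the median of Hba-a1, PBS replicates 2 and 4, r was 0.92. Slc4a1 followed Hba-a1 with an r of 0.81 (permutation p 0.00168, adjusted 0.0084) and a rho of 0.88 (permutation p 0.00032, adjusted 0.0016), and r was 0.87 without those PBS arrays and 0.77 without the 2 arrays farthest in Slc4a1 itself, AAV-hGRB replicate 4 and PBS replicate 3. With Hbb-b1, Slc4a1 had an r of 0.69 (adjusted permutation p 0.0414) and a rho of 0.83 (adjusted permutation p 0.00447), with r at 0.67 and 0.70 without the same pairs of arrays. After each group's mean was taken away, r was 0.96 for Hba-a1 with Hbb-b1, 0.74 for Slc4a1 with Hba-a1 and 0.57 for Slc4a1 with Hbb-b1.

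Alas2 had an r of 0.50 with Slc4a1, 0.43 with Hba-a1 and 0.43 with Hbb-b1, none of which passed after adjustment (adjusted permutation p 0.243, 0.271 and 0.271), and the smallest rho p, 0.133 with Hbb-b1, was 0.285 after adjustment. Once group means were removed these r values lay between 0.16 and 0.19. Klf1 had an r of 0.10 to 0.17 with the other 4 genes, none of which passed. Probes of the same gene agreed: r was 0.99 between the Hba-a1 pair and 0.96 to 0.99 among the 4 Hbb-b1 probes, against 0.93 to 0.97 for the 8 pairs of an Hba-a1 with an Hbb-b1 probe. A slide holds at most 3 arrays, too few for an r within slides.

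**Figure D3:**
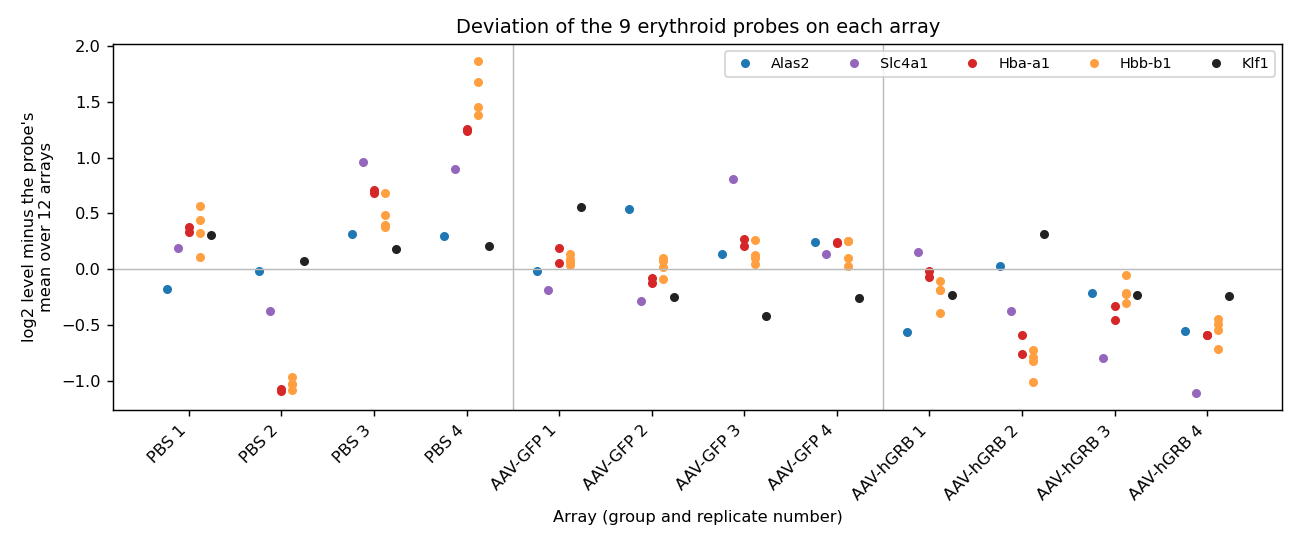
Deviation of the 9 erythroid probes from their own mean over 12 arrays (y axis, log2) on each array (x axis, group and replicate number); points are probes, coloured by gene. On PBS replicates 2 and 4 the Hba-a1 and Hbb-b1 points lie together at opposite ends while Alas2 and Klf1 lie nearer 0, and on the 4 AAV-hGRB arrays the globin points lie below 0.

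**Figure D4:**
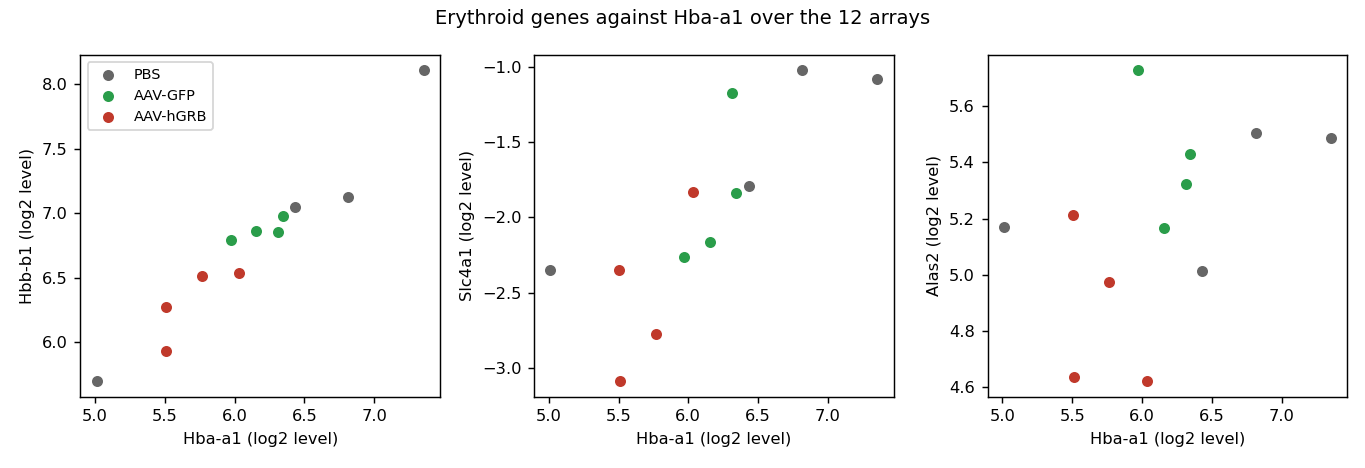
Brightest-probe levels of Hbb-b1, Slc4a1 and Alas2 (y axes, log2 intensity minus the 75th percentile) against Hba-a1 (x axes) on the 12 arrays, coloured by group. Hbb-b1 follows Hba-a1 closely (r 0.97), Slc4a1 less so (r 0.81) and Alas2 loosely (r 0.43).

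The genes most like the 5 in pattern were ranked by Pearson r over the 12 arrays with the mean of the 5 standardised profiles, among 11827 genes. Among the 10 highest were Tmem86b (r 0.89), Sfxn1 (0.88), Smarcal1 (0.85), Bckdk (0.84), Anapc5 (0.84), Tradd (0.84), Mkrn2 (0.84), Slc7a2 (0.83) and Hal (0.82). These r values describe arrays that share groups and were picked as the highest of many, so they carry no test.

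Wider erythroid gene lists, which contain the 5 genes, held 0 called probes in each of the 3 comparisons. Each list is described by the brightest tested probe of each gene, with 3 medians in this order: AAV-hGRB against AAV-GFP, then AAV-GFP against PBS, then AAV-hGRB against PBS, beside -0.05, 0.00 and -0.06 over all probes. Of the globins and their chaperone, 4 probes of the 14 names listed could be tested. All 4 were negative in each comparison, with medians of -0.48, -0.31 and -0.72; beside Hba-a1 and Hbb-b1 these were the embryonic-type Hbb-y and the theta globin Hbq1b, at -0.06 and -0.47 in AAV-hGRB against AAV-GFP.

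Haem synthesis and mitochondrial iron was fully measured, with 13 of 13 genes tested. In AAV-hGRB against AAV-GFP 11 were negative (median -0.30), in AAV-GFP against PBS 5 (median 0.08) and in AAV-hGRB against PBS 12 (median -0.26). Alas1, the synthase that hepatocytes and most other cells use, gave -0.73 (SE 0.55) against AAV-GFP, with AAV-GFP arrays from 5.003 to 6.92 and AAV-hGRB arrays from 5.16 to 6.31, so its groups overlapped. Urod and Alad, later enzymes of the pathway, gave -0.36 and -0.27, and Glrx5, which serves iron-sulphur cluster assembly, gave 0.02. Because hepatocytes also make haem, much of this list is expressed outside the red cell lineage.

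Red cell membrane and skeleton genes were mostly dim: 8 of 18 were tested, and the 10 that were not include the defining markers Epb42 and Rhag. Of the 8, 7 were negative in AAV-hGRB against AAV-GFP (median -0.22), 6 in AAV-GFP against PBS (median -0.08) and 7 in AAV-hGRB against PBS (median -0.47). Gypc, glycophorin C, gave -0.20, -0.37 and -0.56, Epb41, which ties spectrin to the membrane, gave 0.19, 0.16 and 0.35, and Icam4, a red cell adhesion protein, gave -0.34, 0.02 and -0.31.

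Among erythroid transcription factors and the Epo receptor, 11 of 12 were tested, with medians of -0.08, -0.11 and -0.17 and 8, 8 and 7 negative. Zfpm1, the Gata1 cofactor, gave -0.36, 0.39 and 0.04, Ldb1, the bridging cofactor of the Gata1 and Tal1 complex, gave 0.01, -0.05 and -0.04, Epor, the erythropoietin receptor, gave -0.06, -0.11 and -0.17, and E2f2 gave -0.08, 0.49 and 0.41. Gata1, a marker of the lineage, gave -0.28, -0.24 and -0.51 with an SE of 0.36. Its probe was dim, well above background on 3 of 4 arrays in AAV-GFP, 3 of 4 in AAV-hGRB and 2 of 4 in PBS. Red cell enzymes and late erythroid genes had 11 of 14 tested, with medians of -0.13, -0.03 and -0.16 and 8, 6 and 8 negative. The brightest of these, Blvrb, Tspan33, Bnip3l and Xpo7, gave 0.05, -0.44, -0.22 and -0.08 in AAV-hGRB against AAV-GFP.

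Markers of other cells were read alongside, and their part in the erythroid values was not tested. Neutrophil genes (8 of 12 tested) had medians of 0.16, -0.998 and -0.41: the mean level over the list ran from -1.95 to -1.40 in PBS, from -2.79 to -1.98 in AAV-GFP and from -2.58 to -2.02 in AAV-hGRB. All 4 PBS arrays thus lay above both vector groups, the nearest by a small margin, and 8 of 8 genes had negative estimates in each comparison with PBS. None was called; in AAV-GFP against PBS 5 had an unadjusted p under 0.05, among them S100a8 at -1.30 and S100a9 at -1.26. S100a9, S100a8, Ctsg and Prtn3, the brightest of them, gave 0.86, 0.88, -0.44 and -0.05 in AAV-hGRB against AAV-GFP, and the markers Ngp and Camp were too dim to test. Platelet and megakaryocyte genes (9 of 12 tested) had medians of -0.20, 0.10 and -0.26, with list means from -2.18 to -1.30 in PBS, -2.22 to -0.91 in AAV-GFP and -2.28 to -1.76 in AAV-hGRB. Of their brightest genes, Clec1b, Pf4 and Ppbp gave 0.22, 0.26 and -0.08 in AAV-hGRB against AAV-GFP.

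Genes of red pulp and Kupffer macrophages, which clear old red cells, were positive in 10 of 10 cases in AAV-hGRB against AAV-GFP and in 9 of 10 in each comparison with PBS, with medians of 0.26, 0.27 and 0.67 and 0 called. Their list means ran from 1.40 to 2.56 in PBS, 2.04 to 2.61 in AAV-GFP and 2.28 to 3.07 in AAV-hGRB, so the groups overlapped. Cd5l, Marco, Clec4f and Slc40a1, the iron exporter ferroportin, gave 0.24, 0.37, 0.14 and 0.05 in AAV-hGRB against AAV-GFP. A list for haem and haemoglobin scavenging by hepatocytes (9 of 9 tested) had medians of -0.13, 0.03 and 0.00. Besides scavengers it holds Blvra, Blvrb, Fth1, Ftl1, Alb and Ttr, and Alb and Ttr are also in the hepatocyte list. In it Hp, haptoglobin, gave -0.26 and Hpx, hemopexin, -0.19 in AAV-hGRB against AAV-GFP. The erythropoietin and hepcidin axis (8 of 10 tested) had medians of -0.18, -0.29 and -0.37. Its single genes ran from -1.05 to 0.75, from -1.06 to 0.11 and from -2.11 to 0.03 in the same order, with 0 called. The lowest value in each comparison was that of Hamp2, whose mean level was 4.36 in PBS, 3.29 in AAV-GFP and 2.24 in AAV-hGRB. Hamp, which encodes hepcidin, the hormone that closes ferroportin, gave -0.77 (SE 0.39) in AAV-hGRB against AAV-GFP. Tfr2, Tmprss6 and transferrin (Trf) gave -0.30, -0.50 and 0.29 there, while Epo and Erfe were too dim to test. The hepatocyte genes that check the tissue (7 of 8 tested, with Alb, Fgb, Apoa2 and Apoa1 the brightest) had medians of -0.16, 0.02 and -0.12, and their list means ran from 7.87 to 8.48 over the 12 arrays.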

How the data were processed

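Each deposited file lists the linear intensity of an array's spots, background-subtracted and detrended by Feature Extraction 9.5.3.1, per the file headers; the submitters' processing notes name Feature Extraction 9.5. Per the labels' protocols, 500 ng of total RNA per sample was labelled with Cy3. The deposited series matrix equals that intensity in 540216 of 540216 values, within a relative 1e-06.

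For this work, the deposited intensity was put on the log2 scale, averaged over a probe's spots and set relative to the 75th percentile of its array. Testing covered the 26593 of 41174 probes that Feature Extraction marked well above background on 4 or more of 12 arrays and left out 14581. A single limma 3.58.1 fit (R 4.3.3) took all 12 arrays in 3 groups, with 9 residual degrees of freedom, two-sided tests and Benjamini-Hochberg adjustment over all probes tested at 0.05. It was checked on simulated data, where it missed most of the 2-fold changes put in for AAV-hGRB against AAV-GFP. Probe positions are the design's, on mm7.

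Named genes were the 5 erythroid genes with every probe, up to 4 brightest genes of each list and the 10 genes most like the erythroid mean. Epo, Erfe and Hamp2 were named after their values were seen, and Gata1, Epb42, Rhag, Ngp and Camp as markers of a cell type. Some genes that the rule names are left out of the text. The members and lists were chosen with earlier results of these data known. Correlations had two-sided permutation tests adjusted over 10 pairs. Alternatives changed background correction, scaling, filter, slide block, replicate block, array weights, the arrays left out and the groups fitted. Same-numbered samples had a mean correlation of deviations of 0.03 (12 pairs, -0.43 to 0.59). Samples with unlike numbers had a mean of -0.008 (36 pairs, -0.52 to 0.61). The main fit did not pair samples by number, and these values cannot exclude a pairing, since the pairs share arrays.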

Additional observations from a re-analysis of the deposited data

Results flagged for a closer look

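In the AAV-hGRB group Klf1 stood at -1.52 on replicate 2, while the other 3 arrays lay between -2.08 and -2.07. The gap to the nearest array was 0.989 of the group's whole range, above Dixon's 95% critical value for 4 samples. It was the only one of 27 such groups (9 erythroid probes in 3 groups) to pass, and about 5% of groups pass by chance.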

How the results depend on the processing

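No erythroid probe was called under any alternative run, and no comparison held a called probe except AAV-hGRB against PBS with array weights, where 67 probes were called against 0; the cause was not tested. In AAV-GFP against PBS, array weights turned the globins to 0.51 and 0.54 (Hba-a1 probes 1 and 2) and 0.57, 0.45, 0.49 and 0.34 (Hbb-b1 probes 1 to 4). Leaving out 1 array gave ranges of -0.67 to 0.11 and -0.61 to 0.16 for Hba-a1, and -0.56 to 0.25, -0.70 to 0.20, -0.66 to 0.15 and -0.95 to 0.036 for Hbb-b1. In AAV-hGRB against AAV-GFP, Klf1 gave 0.10 with normexp, 0.086 with array weights and -0.14 to 0.21 with 1 array left out. All other erythroid changes kept their direction. With the replicate block, 0 probes were called in each comparison and Alas2 stayed at -0.55; this paired fit changed no call. The series matrix was not run apart, being identical. The median standard error was 0.31 over all probes tested and 0.39 to 0.47 for the globin probes.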
